A study of Mus musculus with 2 samples.

Results

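Antisense genes are transcription units annotated on the strand opposite another gene. The authors' gene table gave the antisense biotype to 2826 of its 54532 genes, and the 257 of these that averaged at least 10 counts over both libraries are described here. The members were thus chosen by the counts of both libraries, and they were compared between the libraries and with the protein-coding gene each overlaps. RNA had been sequenced from RAW264.7, a line of macrophage-like mouse tumour cells, to ask how the ubiquitin ligase RNF138 bears on inflammatory transcription. The data are 1 library labelled wild type (WT) and 1 labelled RNF138 knockout (KO), both from cells given lipopolysaccharide (LPS) at 100 ng/ml for 3 h. The labels do not say how the knockout was made or whether it is 1 clone, and no unstimulated culture was analysed here.

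Natural antisense transcripts can start at a promoter shared with the gene across, run through it, or meet its 3′ end. Some act in cis: Airn and Kcnq1ot1 are long imprinted RNAs whose transcription silences genes nearby on the same chromosome. Others are spliced, stable RNAs with no assigned role, and many are present at low levels. In macrophages, LPS switches on genes through NF-kappaB, AP-1 and interferon signalling, and several of those genes carry an annotated antisense partner.

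The targeted gene went against its label. Rnf138 had 602 counts under the WT label and 4764 under the KO label, a ratio of 6.55 (95% interval 6.01 to 7.14), so every direction below is that of the labelled libraries and not of a known loss of RNF138. Total counts were 15573989 and 19032311. Ratios compare counts scaled by trimmed mean of M-values (TMM) totals, and their exact intervals cover counting error only, since amplified reads without molecular identifiers are not independent molecules. With 1 library per group no difference has a replicate check and none was tested. All 12 macrophage markers averaged at least 10 counts, although Adgre1 had 542 and 183 counts and Lyz2 had 4351 and 13391. Among markers of other cell types, Lck of the T cell list and Pecam1 of the endothelial list reached that minimum, whereas Cd3e, Cd3g, Ms4a1, S100a8, S100a9, Mpo, Pdgfra, Dcn, Epcam, Krt8, Krt18 and Kdr were at 0 in both. The summed endothelial list was 6.19 and 1.53 CPM (the count out of 1000000 after library scaling) and the summed T cell list 1.6 and 3.06 CPM. The B cell, neutrophil, fibroblast and epithelial lists summed to at most 0.423 CPM in either library, and the part of these differences in the results was not tested. In RNA from a whole culture, fewer cells carrying a transcript and less of it in each cell cannot be told apart.

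Counts are per gene, and reads across a splice junction were not counted apart. A junction annotated in a transcript can be absent from other transcripts of its gene. For some members, the annotated mature RNA around such a junction is given as a stretch of bases. Each stretch runs 5′ to 3′ on the transcribed strand of GRCm38. The 50 bases of the exon before the junction are in lower case and the 50 bases of the exon after it in capitals. The members shown are Airn, Hoxb5os, Il1bos and Ttc39aos1, which were higher in the library labelled KO, and Junos, which was lower. On the plus strand, base 12816794 of chromosome 17 is joined to base 12829825 in Airn, base 129372922 of chromosome 2 to base 129373070 in Il1bos, and base 95075870 of chromosome 4 to base 95147105 in Junos. On the minus strand, base 96306737 of chromosome 11 is joined to base 96293554 in Hoxb5os, and base 109405726 of chromosome 4 to base 109404606 in Ttc39aos1.
Airn: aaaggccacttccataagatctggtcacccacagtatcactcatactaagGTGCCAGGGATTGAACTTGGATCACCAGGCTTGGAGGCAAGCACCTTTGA
Hoxb5os: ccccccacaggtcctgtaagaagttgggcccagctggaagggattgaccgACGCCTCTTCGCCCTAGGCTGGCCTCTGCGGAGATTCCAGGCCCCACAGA
Il1bos: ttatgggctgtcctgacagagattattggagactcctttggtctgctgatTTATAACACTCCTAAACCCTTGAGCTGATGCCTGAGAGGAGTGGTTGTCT
Ttc39aos1: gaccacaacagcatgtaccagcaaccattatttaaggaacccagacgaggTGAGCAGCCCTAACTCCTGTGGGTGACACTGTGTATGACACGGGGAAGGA
Junos: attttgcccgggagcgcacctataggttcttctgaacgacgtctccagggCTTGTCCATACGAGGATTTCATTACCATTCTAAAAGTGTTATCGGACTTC

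A further stretch shows how little of the mature Il1bos RNA lies across from its partner. Exons annotated for Il1bos and Il1b share 25 bases, at chr2:129369897-129369921 on GRCm38, all outside the coding sequence of Il1b. The bases were read from an annotated transcript of each gene, and other Il1b transcripts need not contain them. The capitals mark the shared bases, and the lines are complementary to each other.
Il1bos: AGTCTAGAAGCAGATTCTGGGCCAG
Il1b: CTGGCCCAGAATCTGCTTCTAGACT

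The members were scarce RNAs. Their median mean count was 23, with a range from 10 to 2195, and 21 of them had a mean count of at least 100. All antisense genes together took 0.0871% of the WT-labelled and 0.0946% of the KO-labelled counts. The members summed to 742 and 814 CPM, of which the long non-coding RNA Tug1 took 17.1% and 15.6%. Of the other antisense genes, 1751 had 0 counts in both libraries, and 1075 of the 2826 had at least 1 count in either. Just inside the minimum, at a mean count of 10, stood 1700069B07Rik with 10 and 10 counts, Gm15952 with 12 and 8, and 9630013K17Rik with 4 and 16. Just outside it, at a mean of 9.5, stood Gm17259 with 7 and 12 counts, A630072M18Rik with 8 and 11, and Gm48420 with 13 and 6.

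Per length, members lay far below the coding genes across from them. The median level of the members was 0.811 FPKM (the deposited level per gene length and library total) in the library labelled WT and 0.931 FPKM in the library labelled KO. The measured coding genes they overlap had medians of 12.1 and 12.7 FPKM, and all coding genes that averaged at least 10 counts had 8.13 and 8.22 FPKM. Within each of the 218 pairs in which both genes averaged at least 10 counts, the median antisense level was 6.84% and 8.0% of the coding level. The middle of the distribution was wide, from 2.38% to 17.2% between quartiles in the library labelled WT and from 2.90% to 24.0% in the library labelled KO. The antisense level exceeded the coding level in 14 and 15 of these pairs. One such pair was Gm17201, at 35.4 and 37.4 FPKM, and Ankrd52, a regulatory subunit of protein phosphatase 6, at 20.2 and 24.0 FPKM, although 59.5% of the exon bases of Gm17201 are shared with other genes. Brip1os, at 8.56 and 8.66 FPKM, also exceeded Ints2, an Integrator complex subunit at 6.47 and 5.72 FPKM.

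**Figure D1:**
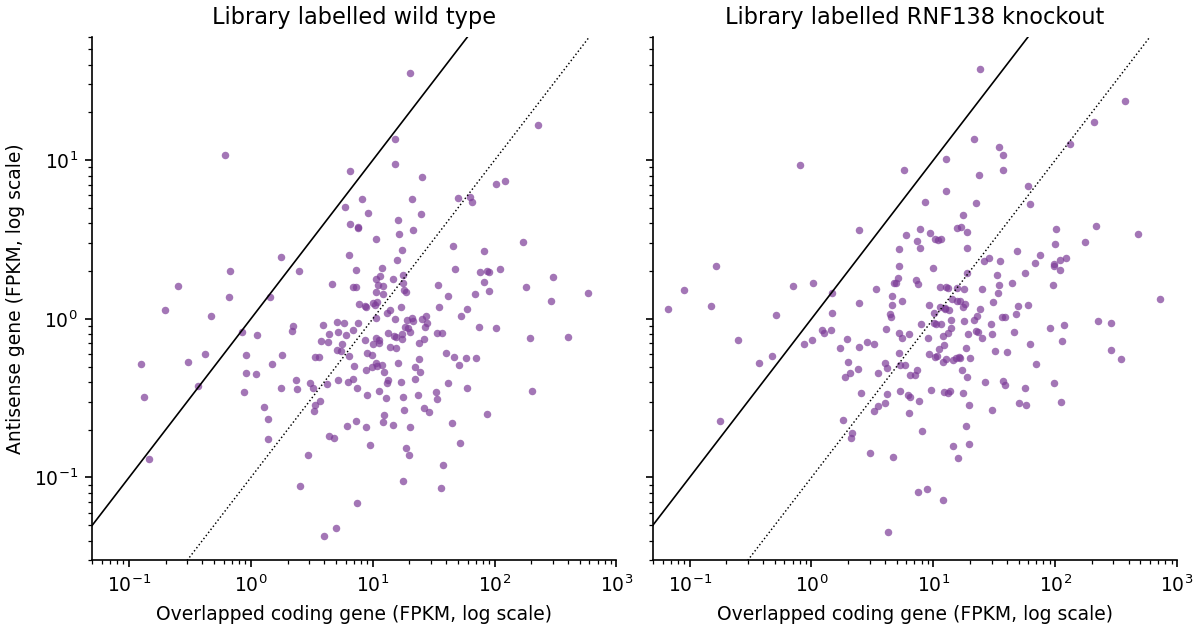
Level of each antisense gene (vertical axis, FPKM, log scale) against the coding gene across from it (horizontal axis, FPKM, log scale) in each library, 1 point per pair with both genes averaging at least 10 counts. The solid line marks equal levels and the dotted line an antisense level at 10% of the coding level. Most points lie below the solid line, and 14 and 15 of 218 lie above it.

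The strand setting of the counting and of the library was not stated in the labels or the table, so in overlapping exons reads of the 2 strands cannot be told apart. The table shows how little was assigned to fully shared exons. Of 40 antisense genes whose every exon base is shared and whose coding partner had a mean count of at least 100, 39 had 0 counts in both libraries and the highest mean was 1.5. Of 361 antisense genes that share no exon base with such a partner, 126 had 0 counts in both. No member had all of its exon bases shared, 55 members shared none with any other gene, and the median share was 12.3%. A median of 51.8% of a member's exon bases lay in introns of coding genes, and over 50% in 135 members, where reads of unspliced coding RNA and of antisense RNA cannot be told apart either.

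Between the libraries, more members were higher in the library labelled KO than lower. The size rule asked for a ratio of at least 2-fold and an interval that excludes 1. By this rule 46 of the 257 members were higher, 17.9%, and 16 were lower, 6.23%, while 195 did not pass. The same rule took in 6.54% and 3.62% of the 12668 genes that averaged at least 10 counts, but 9411 of those averaged at least 100 counts. Among all genes with a mean count of 10 to 100, where 236 members lay, it took in 15.4% and 9.12%, and among these members 19.1% and 6.36%. Coding genes gave 5.61% higher and 3.21% lower, and those with a mean count of 10 to 100 gave 17.4% and 10.8%. The 257 long intergenic non-coding RNA genes above the minimum gave 13.6% and 4.28%, with 35 and 11 genes. The share of higher members was thus near that of other genes as scarce as they are, and the share of lower members was below it over this range as a whole; neither difference was tested.

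The median log2 ratio (KO over WT label) of the members was 0.20, with an order-statistic interval of 0.08 to 0.32 over genes, which are not replicates, and 154 of 257 lay above 0. The median over all genes above the minimum was 0.02, over genes with a mean count of 10 to 100 it was 0.13, and over the long intergenic RNAs it was 0.17. Members could enter through 1 library alone: 46 had under 10 counts in the library labelled WT and 16 under 10 in the library labelled KO. The raw counts of such genes had to differ, though not past the rule. Such genes made up 19 of the 46 higher and 8 of the 16 lower members. Over the 195 members with at least 10 counts in each library, 27 were higher and 8 lower, with a median log2 ratio of 0.08 (interval -0.01 to 0.20). The share of all genes under this stricter minimum was not computed, so these counts have no background beside them.

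**Figure D2:**
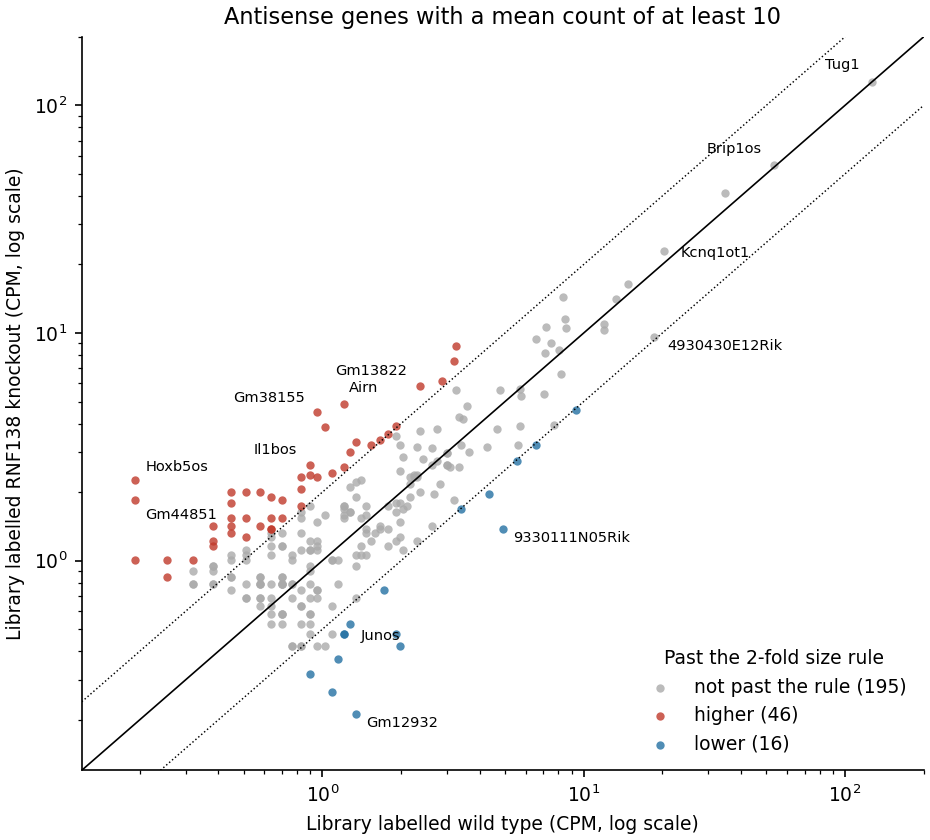
Level of each of the 257 members in the library labelled WT (horizontal axis, CPM, log scale) and in the library labelled KO (vertical axis, CPM, log scale). The solid line marks equal levels and the dotted lines 2-fold differences; 46 members past the size rule lie above and 16 below. The most abundant members, Tug1 and Brip1os, lie near the line of equal levels, while 4930430E12Rik lies near the lower dotted line.

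Most differences past the rule came from members with few counts. With a mean count of 10 to 20, 17 of 117 members were higher, 14.5%, and 9 lower, 7.69%, beside 16% and 9.38% of all genes of that abundance. With a mean of 20 to 50, 22 of 89 were higher, 24.7%, and 2 lower, 2.25%, beside 16.7% and 10.4%. With a mean of 50 to 100, 6 of 30 were higher, 20%, and 4 lower, 13.3%, beside 12.7% and 6.94%. Of the 21 members with a mean of at least 100, 1 was higher and 1 was lower, 4.76% each, beside 3.47% and 1.71%. Members were thus lower less often than all genes in the ranges up to a mean of 50 and more often above it, and these differences were not tested. The higher one was Gm16028, with 51 and 166 counts, and the lower one was the transcript of the Rosa26 locus, with 146 and 87 counts. Single-exon members numbered 33, of which 3 were higher and 1 lower, while 43 of the 224 spliced members were higher and 15 lower.

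The imprinted RNA Airn and its known target gene differed in opposite directions, and whether these differences are linked was not tested. Airn (chr17:12741311-12860136, plus strand) had 19 counts under the WT label and 92 under the KO label, or 1.21 and 4.86 CPM. Its ratio was 4.01 (2.43 to 6.95). Igf2r, the receptor that takes up insulin-like growth factor 2 and mannose-6-phosphate-tagged proteins, runs the other way and shares 28354 bases of gene body with Airn. It had 1589 and 779 counts and was 2.47-fold lower (2.26 to 2.69). Airn counts relative to Igf2r counts were 9.88-fold higher in the library labelled KO (5.92 to 17.3), the highest of the 218 pairs. The exons of Airn share no base with another gene, and 23.8% of their bases lie in coding introns. Only the first Airn exon, 0 to 0.113 kb from the Airn start, lies within the gene body of Igf2r. The other coding gene that Airn crosses, the receptor gene Mas1, had 0 and 2 counts. Kcnq1ot1, the other long imprinted RNA among the members, had 317 and 435 counts, a ratio of 1.14 (0.980 to 1.32), with an interval that includes 1. The potassium channel gene Kcnq1, across from it, had 0 counts in both libraries.

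Il1bos was higher together with Il1b, the gene of the inflammatory cytokine interleukin-1 beta. Il1bos (chr2:129369897-129375748, plus strand) had 14 and 50 counts, or 0.894 and 2.64 CPM, and a ratio of 2.95 (1.61 to 5.79). Il1b had 967 and 4123 counts, for a ratio of 3.53 (3.29 to 3.79). The Il1bos count relative to that of Il1b had an odds ratio of 0.838 between the libraries, with an interval of 0.454 to 1.65 that includes 1. The pair starts head to head, and its 25 shared exon bases are those printed above, 0.839% of the exon length of Il1bos.

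Some members crossed genes of immune signalling. In lists of pathway genes, 5 of 48 interferon-response genes were crossed by an annotated antisense gene and 2 by a member. The counts were 4 and 2 of 41 inflammatory genes, 7 and 2 of 48 Toll-like receptor and NF-kappaB genes, and 5 and 1 of 28 subunits of the SWI/SNF chromatin-remodelling complex. In the same order, any antisense gene crossed 10.4%, 9.76%, 14.6% and 17.9% of the list genes, beside 11.4% of all 22046 coding genes. Members crossed 3.57% to 4.88% of the genes of each list, beside 2.41% of the 10785 measured and 1.33% of all coding genes. These differences were not tested. Gm13822 (chr5:114917318-114923277, minus strand) starts head to head with Oasl1, an interferon-induced member of the oligoadenylate synthetase family. Gm13822 had 37 and 111 counts, a ratio of 2.48 (1.70 to 3.71), and Oasl1 had 4013 and 9962 counts, a ratio of 2.05 (1.98 to 2.13). Both were past the rule in the same direction, and their odds ratio of 1.21 had an interval of 0.825 to 1.81. Gm17017, whose largest overlap is with Sp140, also touches the nuclear-body gene Sp100. It had 34 and 41 counts and had a ratio of 0.998 (0.618 to 1.62), while Sp100 had 112 and 155 counts.

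Gm28913 and Gm28914 both lie inside Ikbke, which encodes an IkappaB kinase-related kinase, and so share 1 partner. Ikbke had 2057 and 5676 counts, a ratio of 2.28 (2.17 to 2.40). Gm28913 had 52 and 81 counts with a ratio of 1.29 (0.899 to 1.86), and Gm28914 had 10 and 20 counts with a ratio of 1.65 (0.739 to 3.96). Neither passed the rule. Relative to Ikbke, Gm28913 was 1.77-fold lower in the library labelled KO (1.22 to 2.55), short of 2-fold. Gm39318 lies inside Tirap, the adaptor of Toll-like receptors 2 and 4, and had 7 and 19 counts with a ratio of 2.25 (0.904 to 6.32). Gm16712, across from the 3′ end of Ebi3, a cytokine subunit of interleukin-27, had 232 and 311 counts, a ratio of 1.11 (0.933 to 1.32), beside 440 and 782 counts of Ebi3. Gm42067, across from the start of Dpf2, the only listed SWI/SNF subunit crossed by a member, had 7 and 20 counts, a ratio of 2.36 (0.960 to 6.62). Of these members, Il1bos and Gm13822 alone passed the rule. Gm16685, head to head with the cytokine gene Il7, had 8 and 38 counts, a ratio of 3.93 (1.81 to 9.75), whereas Il7 itself, with 2 and 13 counts, was under the minimum.

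**Figure D3:**
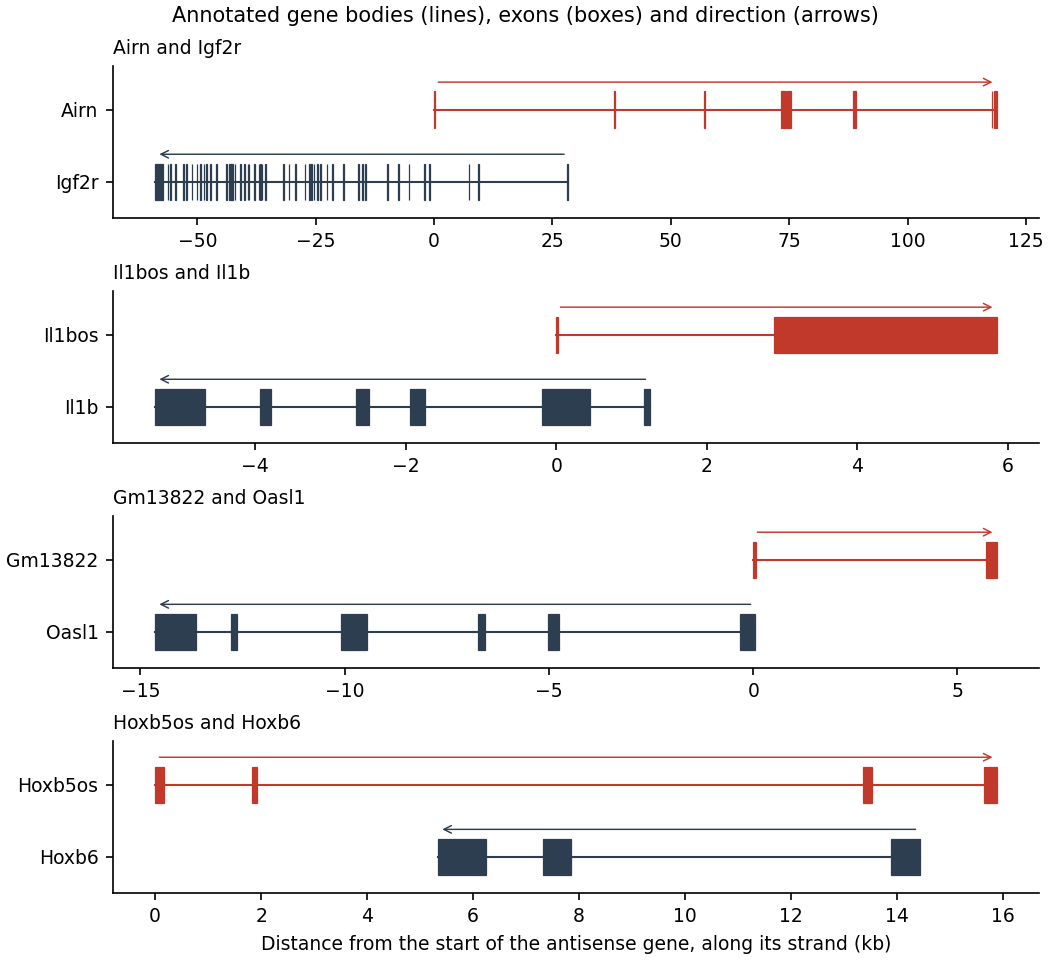
Gene bodies (lines), annotated exons (boxes) and direction of transcription (arrows) of 4 antisense genes in red and a coding gene across from each in dark blue, drawn to scale against distance from the start of the antisense gene (horizontal axis, kb, along its strand). Airn starts inside Igf2r and Il1bos inside Il1b, Gm13822 meets Oasl1 only at its start, and Hoxb6 lies within Hoxb5os.

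Of the 46 higher members, 5 had an interval wholly beyond 2-fold: Hoxb5os, Gm44851, Gm38155, Airn and Ttc39aos1. Hoxb5os (chr11:96291024-96306910, minus strand) runs across the homeobox genes Hoxb5 and Hoxb6 and had 3 and 43 counts, a ratio of 11.9 (3.80 to 59.8). Hoxb6 had 100 and 215 counts, a ratio of 1.78 (1.40 to 2.28), and Hoxb5 had 85 and 109 counts, a ratio of 1.06 (0.792 to 1.43). Hoxb5os relative to Hoxb6 was 6.67-fold higher (2.05 to 34.3), so both genes were higher by point estimate but not in proportion. Gm44851 (chr7:80404269-80406577, plus strand), head to head with the proprotein convertase gene Furin, had 3 and 35 counts, a ratio of 9.65 (3.04 to 49.1). Furin had 5023 and 7722 counts, a ratio of 1.27 (1.23 to 1.32). Gm44851 has a single exon, of which 5.11% is shared, and its first 100 bases, at chr7:80404269-80404368 on the plus strand, lie outside any other exon.
Gm44851: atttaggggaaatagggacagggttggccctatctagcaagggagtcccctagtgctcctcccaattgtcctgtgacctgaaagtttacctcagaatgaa

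Gm38155 (chr1:187344970-187377469, minus strand), which meets the 3′ part of Gpatch2, had 15 and 85 counts, a ratio of 4.69 (2.69 to 8.74). Its exons share no base with another gene, but 99.1% of them lie in coding introns, and Gpatch2 had 278 and 670 counts, a ratio of 1.99 (1.73 to 2.30). Ttc39aos1 (chr4:109403794-109406155, minus strand) overlaps no coding gene on either strand and shares no exon base. It had 16 and 73 counts, for a ratio of 3.77 (2.18 to 6.95). The other 7 of the 12 highest ratios were those of 4933431G14Rik, Gm16617, Gm48239, Gm16685, Gm15122, Gm26852 and Gm26740, which had 3 to 9 counts in the library labelled WT. They had 19 to 38 counts in the library labelled KO. Their partners include St3gal5, the synthase of the ganglioside GM3, with 1486 and 1935 counts; Ercc2, a helicase of the repair and transcription factor TFIIH, with 467 and 484 counts; and Raet1e, a ligand of the receptor NKG2D, with 1068 and 1967 counts. None of these 3 coding genes was past the rule.

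The lower members were led by genes with no coding gene across. Gm12932 had 21 and 4 counts and was 6.35-fold lower (2.14 to 25.4), and Gm13807 had 31 and 8 counts and was 4.68-fold lower (2.11 to 11.8). With 9330111N05Rik they were the 3 lower members whose interval lay wholly beyond 2-fold. 9330111N05Rik had 77 and 26 counts and was 3.58-fold lower (2.27 to 5.82); the adhesion receptor gene Adgrv1, which it meets tail to tail, had 14 and 5 counts and was under the minimum. Gm45606, head to head with the amino acid transporter gene Slc43a2, had 30 and 9 counts and was 4.03-fold lower (1.87 to 9.65), while Slc43a2 had 653 and 391 counts and was 2.02-fold lower (1.78 to 2.29). It was the only pair in which both genes were past the rule as lower, and 33.0% of the exon bases of Gm45606 are shared. Junos, head to head with Jun, the AP-1 subunit gene, had 20 and 10 counts and was 2.42-fold lower (1.08 to 5.78), and Jun had 845 and 934 counts. The other 7 of the 12 lowest ratios ranged from 4933423P22Rik, 2.22-fold lower with 68 and 37 counts, to Gm42726, 4.11-fold lower with 17 and 5 counts.

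**Figure D4:**
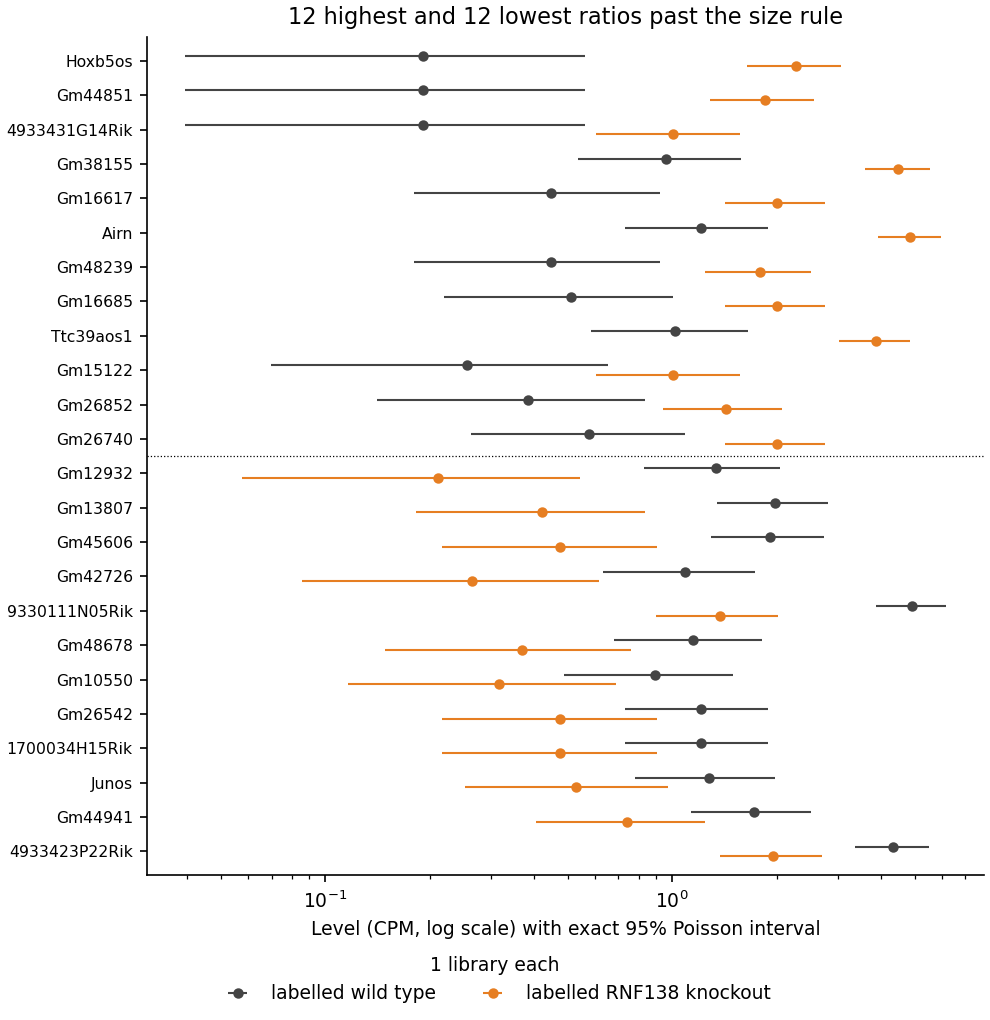
Level (horizontal axis, CPM, log scale) of the 12 members with the highest and the 12 with the lowest ratios past the size rule, with exact 95% Poisson intervals from counting error only. Grey points are the library labelled WT and orange points the library labelled KO. The dotted line divides members that were higher from those that were lower; the widest intervals belong to genes with 3 counts in the library labelled WT, such as Hoxb5os and Gm44851.

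Among the 8 most abundant members none passed the size rule. Tug1 had 1984 and 2406 counts, a ratio of 1.003 (0.945 to 1.07), while Morc2a, a chromatin-associated ATPase gene that starts head to head with it, had 1385 and 2390 counts, a ratio of 1.43 (1.34 to 1.53). Brip1os had 837 and 1030 counts, a ratio of 1.02 (0.928 to 1.12). It crosses 2 coding genes, Ints2 with 1033 and 1111 counts and the Mediator subunit gene Med13 with 3282 and 2688 counts. Rab10os, at the 3′ end of the small GTPase gene Rab10, had 544 and 777 counts, a ratio of 1.18 (1.06 to 1.32). Gm17201 had 208 and 267 counts with a ratio of 1.06 (0.883 to 1.28). Gm45515, inside Swap70, had 187 and 207 counts and was 1.09-fold lower (0.891 to 1.34). Of these 8, 4930430E12Rik lay farthest from 1: with 292 and 181 counts it was 1.95-fold lower (1.61 to 2.36), short of the rule.

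Members named for an opposite-strand partner numbered 27, of which 5 were higher, 2 lower and 20 not past the rule. Besides Hoxb5os, Il1bos and Ttc39aos1, the higher ones were Peak1os with 30 and 74 counts and Rab11fip4os1 with 17 and 46 counts. The lower ones were Junos and Arhgap27os3, the latter with 103 and 61 counts. Their median log2 ratio was 0.04. Kdm6bos, across from the H3K27 demethylase gene Kdm6b, had 26 and 26 counts, and Zeb2os, across from the transcription factor gene Zeb2, had 8 and 21 counts with a ratio of 2.17 (0.924 to 5.67). Both fell short of the rule. Of a list of 19 well-known antisense or regulatory RNAs, 18 were in the table, 7 had the antisense biotype, and 3 were members: Kcnq1ot1, Airn and Hotairm1, an RNA known from myeloid cells, which had 16 and 30 counts, a ratio of 1.55 (0.819 to 3.05). Tsix, Nespas, Mirt2 and Nron had 0 counts in both libraries, which does not exclude a level of a few counts in each. Ptgs2os2, across the inducible cyclooxygenase gene by name, is listed as an intergenic RNA and was therefore no member; it had 44 and 245 counts.

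The shares of coding partners past the size rule were near those of other abundant genes. A coding gene lay across from 242 members, and 46 of these crossed several, in which case the one with the largest overlap was used. The 214 measured coding partners gave 6 higher, 2.8%, and 5 lower, 2.34%, beside 5.61% and 3.21% of all measured coding genes. The log2 ratios of these mostly abundant partners had an SD of 0.47, those of the members 0.89, and those of all genes with a mean count of 10 to 100 had 1.18. Of the 54 members past the rule in a measured pair, 4 were higher beside a higher coding gene, 2 higher beside a lower one and 1 lower beside a lower one. The other 47 faced a coding gene not past the rule, 35 of them as higher and 12 as lower members. The coding partner was past the rule in either direction for 7 of these 54 members, 13%, and for 5 of the 164 members not past it, 3.05%, a difference that was not tested. Those 5 include both Gm28913 and Gm28914, which share the partner Ikbke. The 4 higher pairs were Il1bos with Il1b, Gm13822 with Oasl1, Gm48239 with Cadps, and Gm43569 with Fnbp1l. Cadps, which primes dense-core vesicles for release, had 33 and 103 counts, a ratio of 2.58 (1.73 to 3.95), beside 7 and 34 counts of Gm48239, a ratio of 4.02 (1.75 to 10.7). Fnbp1l, a membrane-bending regulator of actin assembly, had 6516 and 17141 counts, a ratio of 2.18 (2.11 to 2.24), beside 10 and 26 counts of Gm43569, a ratio of 2.15 (1.004 to 4.999). The exons of Gm48239 lie wholly in introns of coding genes, as do 61.5% of the exon bases of Gm43569.

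The pairs with a lower coding gene beside a higher antisense gene were Airn with Igf2r and an antisense entry that carries the symbol Trmt61b, across from Spdya. That entry (chr17:71557027-71598755, minus strand) had 26 and 64 counts, a ratio of 2.04 (1.27 to 3.35). Spdya, an activator of cyclin-dependent kinases, had 14 and 6 counts and was 2.82-fold lower (1.02 to 8.95). At Runx1, a transcription factor gene of blood cell development, the coding gene had 1945 and 997 counts and was 2.36-fold lower (2.18 to 2.55), and Gm26626 inside it had 6 and 15 counts, a ratio of 2.07 (0.758 to 6.51). At Txnip, which encodes a thioredoxin-binding arrestin, the coding gene had 1959 and 5568 counts, a ratio of 2.35 (2.23 to 2.48), while Gm15441, which spans it, had 10 and 12 counts, a ratio of 0.993 with limits of 0.393 and 2.57. The remaining coding partner past the rule was Gm42715, with 38 and 21 counts, 2.19-fold lower (1.25 to 3.92), across from Gm28198 with 8 and 13 counts.

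Relative counts within a pair need no library scaling. By the odds ratio of antisense to coding counts, at least 2-fold with an interval excluding 1, the antisense gene was relatively higher in the library labelled KO in 29 of 218 pairs, 13.3%, and relatively lower in 7, 3.21%. Coding genes with a mean count of 10 to 100 set against a coding gene across gave 14.8% and 10.6% of 331 pairs. The 218 pairs also include members with higher mean counts, so the sets are not matched in abundance. An antisense gene that entered through its count under the KO label alone had to have more counts there than under the WT label. Among the 162 pairs with at least 10 antisense counts in each library, 12 were relatively higher and 5 relatively lower. The pairs of coding genes were not counted under that minimum, so these values have no background beside them. Of the 29 antisense genes, 20 were past the rule on their own, and of the coding genes 3 were. After Airn with Igf2r, the highest odds ratios were those of Gm44851 with Furin, 7.59 (2.39 to 38.6), Hoxb5os with Hoxb6, Trmt61b with Spdya, 5.74 (1.8 to 19.97), and Gm26626 with Runx1, 4.88 (1.78 to 15.4). Of the 7 pairs with a lower odds ratio, 5 antisense genes and no coding gene were past the rule. The clearest by interval was 4933423P22Rik inside Ptprj, a receptor tyrosine phosphatase gene, whose antisense count was 3.77-fold lower relative to the coding count (2.48 to 5.80). Ptprj had 4227 and 8667 counts, a ratio of 1.70 (1.64 to 1.76), so the pair differed in opposite directions, and every exon base of 4933423P22Rik lies in a coding intron. The other lowest were Gm42726 with the ubiquitin-conjugating enzyme gene Ube2k, 3.94-fold lower, Gm48678 with Itsn2, 3.10-fold, Gm44941 with Snrpg, 3.06-fold, and Gm15545 with Bcl2l12, 2.51-fold.

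Across pairs, antisense and coding log2 ratios were weakly related. Pearson's r was 0.26 and Spearman's rho 0.28 over 218 pairs, which share both libraries and are not independent, and 133 pairs had the same sign. Over the 172 pairs that share exon bases r was 0.27, and over the 46 that share none it was 0.24. The arrangement of the pair went with different values. Antisense genes inside a coding gene, 103 members with 22 higher and 8 lower, gave r 0.34 over 93 pairs, and head-to-head genes, 64 members with 13 higher and 3 lower, gave 0.33 over 60 pairs. Tail-to-tail genes, 59 members with 8 higher and 3 lower, gave r -0.00 over 53 pairs, with the same sign in 23 of them. The 16 members that contain a coding gene had 2 higher and 0 lower. The 15 members with no coding gene across had 1 higher and 2 lower and a median log2 ratio of -0.34. The differences between arrangements were not tested.

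**Figure D5:**
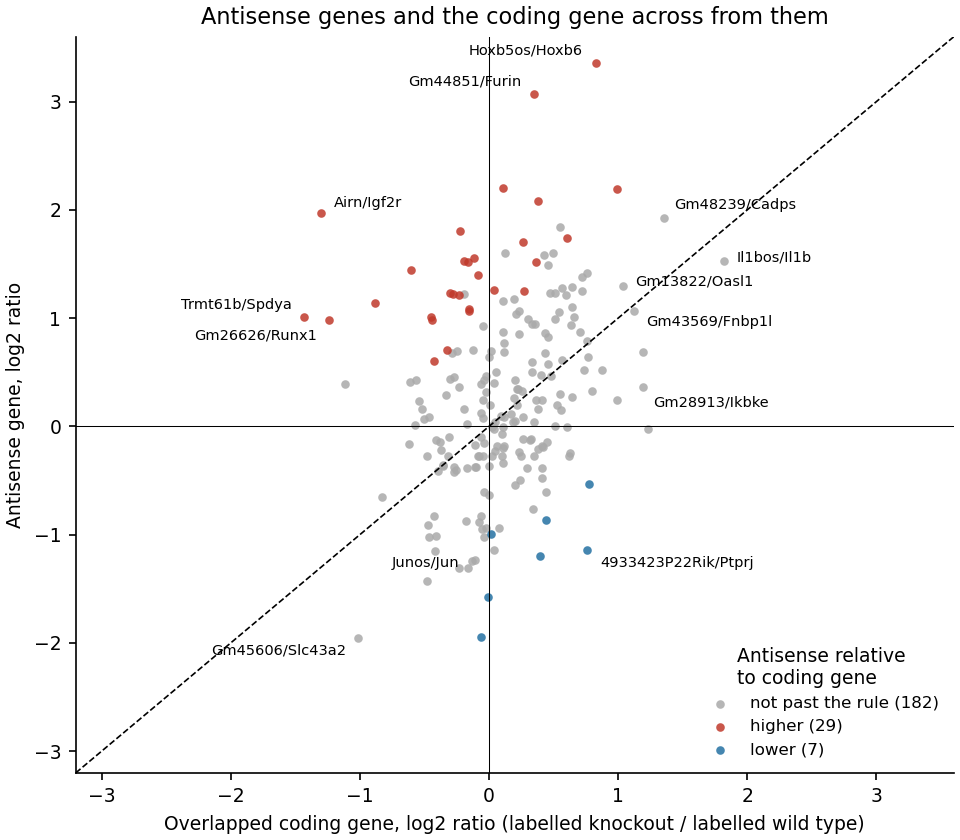
Log2 ratio, KO over WT label, of each antisense gene (vertical axis) against that of the coding gene across from it (horizontal axis) for 218 pairs. The dashed line marks equal ratios; red and blue points are the 29 and 7 pairs in which the antisense count relative to the coding count was higher or lower past 2-fold. The mostly more abundant coding genes (SD 0.47) spread less than the antisense genes (0.89), which spread less than all genes with a mean count of 10 to 100 (1.18). Airn with Igf2r lies farthest from the line in the upper left.

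Promoter windows from RefSeq on GRCm38.p6, 250 bases before to 50 after a start, were matched by symbol for 107 members, which have 134 windows. On both strands, the NF-kappaB letters, GGG and TTTCC around 2 bases of any kind, occurred in 1.49% of member windows and in 1.61% of all 32544 windows. TGANTCA, taken for AP-1, occurred in 5.97% and 7.79%, the interferon response element letters, GAAA repeated after 2 bases of any kind, in 3.73% and 3.45%, and CCGGAAGT, taken for ETS factors, in 6.72% and 3.92%. A match is a description of letters and not a shown binding site. Of member windows with a match, those of higher members were 2 of 2 for NF-kappaB, 3 of 8 for AP-1, 0 of 5 for the interferon letters and 1 of 9 for ETS, where 36 of all 134 windows belong to higher members. The members with the NF-kappaB letters were Gm9917 and Gm26628, with 8 and 29 counts (ratio 3.00, 1.34 to 7.59) and with 19 and 49 counts (ratio 2.13, 1.23 to 3.84). Gm26628 has a further window, overlapping the first, with no NF-kappaB match. The AP-1 letters stood in windows of Ttc39aos1, Gm20234 and Gm40645, which were higher, and of Junos, which was lower. They also stood in windows of Alkbh3os1, Gm15417 and A830035O19Rik, which did not pass the rule. Gm9917 meets the 3′ part of the tumour suppressor gene Rassf1, and Gm26628 lies inside Polr1a, the gene of the largest RNA polymerase I subunit. These windows and that of Ttc39aos1, which has the AP-1 letters, were chosen after the values were seen. Each is on the minus strand, printed 5′ to 3′ with the motif in capitals and with no match to the other motifs. They lie at chr9:107566916-107567215, chr6:71963629-71963928 and chr4:109406208-109406507. The RefSeq starts of these windows differ from the starts of the counted genes. Gm9917 was counted over chr9:107558809-107568415, so its window lies wholly inside the gene. On the minus strand, the counted Gm26628 and Ttc39aos1 start at bases 71963775 and 109406155.
Gm9917: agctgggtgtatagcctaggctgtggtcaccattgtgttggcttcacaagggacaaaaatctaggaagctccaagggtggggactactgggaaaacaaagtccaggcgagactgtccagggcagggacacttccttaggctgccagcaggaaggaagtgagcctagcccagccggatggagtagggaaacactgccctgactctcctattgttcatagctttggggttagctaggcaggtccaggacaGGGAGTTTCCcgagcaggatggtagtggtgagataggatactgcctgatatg
Gm26628: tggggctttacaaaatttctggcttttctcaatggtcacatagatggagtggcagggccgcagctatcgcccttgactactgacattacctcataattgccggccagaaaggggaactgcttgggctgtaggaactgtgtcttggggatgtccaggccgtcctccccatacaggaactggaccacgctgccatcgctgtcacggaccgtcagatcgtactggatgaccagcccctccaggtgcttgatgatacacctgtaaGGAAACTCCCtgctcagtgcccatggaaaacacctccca
Ttc39aos1: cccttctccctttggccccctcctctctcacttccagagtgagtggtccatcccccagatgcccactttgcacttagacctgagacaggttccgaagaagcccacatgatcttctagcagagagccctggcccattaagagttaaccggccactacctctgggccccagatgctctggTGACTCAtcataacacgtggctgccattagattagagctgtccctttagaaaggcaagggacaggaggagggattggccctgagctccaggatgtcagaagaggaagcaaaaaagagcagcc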

How the data were processed

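The 2 libraries, 1 for each label, were analysed from the gene table that the authors deposited. Its raw counts were deposited as whole reads per gene. The submitters' processing notes name the build GRCm38 (mm10) and the tools HISAT2 2.0.5, CASAVA 1.8 and featureCounts 1.5.0-p3, in no order and with no role. The sources used here do not give the strand setting or the annotation release. Values in FPKM deposited by the authors are counts per gene length and per 96.6% and 96.2% of the total counts. The table's signal, log2 fold changes and p-values, deposited by the authors, were not used, because 1 library per group gives no spread.

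Counts were scaled with TMM factors of edgeR 4.0.16 in R 4.3.3, 1.01 and 0.995. No edgeR or DESeq2 test was run. Ratios have exact Clopper-Pearson intervals conditional on the summed counts, and odds ratios exact conditional intervals (scipy 1.17.1), at 95%. Log2 ratios had 0.5 counts added. The calculation was tested on simulated data. Overlaps of gene bodies came from the table's coordinates, and exons from GENCODE M21 on GRCm38, where 254 of 257 members had the same ends. Named members were the 12 highest and 12 lowest ratios past the size rule, the 8 most abundant, those with opposite-strand or well-known names, those across listed pathway genes, those next to the minimum, and the 5 highest and 5 lowest odds ratios, with their partners. Some genes under this rule are not reported here. Other coding partners past the rule with their antisense genes, Gm16028, the Rosa26 transcript, Gm9917, Gm26628 and Ptgs2os2 were named after their values were seen. Gm20234, Gm40645, Gm15417 and A830035O19Rik were also named then, and the sequences shown were chosen then. The members and lists were chosen with earlier results of these data known. The alternatives were other library scalings, minimum counts, fold limits, interval rules, added counts, FPKM and other definitions of a partner.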

Additional observations from a re-analysis of the deposited data

How the results depend on the processing

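No paired analysis was possible because each group has 1 library, and for the same reason no library could be left out. The median log2 ratio of the members stayed positive in all 10 alternatives run for it. The other results are counts of genes or pairs, for which no change of direction was defined. DESeq2 size factors, total counts and upper-quartile factors moved no count of genes by over 1.5 times. The 46 higher and 16 lower members became 29 and 7 at a minimum mean count of 20, 1 and 1 at 100, 7 and 4 at a 4-fold limit, 5 and 3 with the whole interval beyond 2-fold, 11 and 6 among members sharing no exon base, and 27 and 8 with at least 10 counts in each library; with no minimum the lower members were 27. The median log2 ratio of 0.20 became 0.0757 on log2 of FPKM plus 1, a scale that understates low genes. The 6 higher coding partners became 31 with no minimum, 28 at a 1.5-fold limit, and 0 at a minimum of 100 or a 4-fold limit. The 5 lower ones became 25 with no minimum, 8 at 1.5-fold, 2 with the whole interval beyond 2-fold, 1 at a minimum of 20, and 0 at 100 or 4-fold. The 5 pairs past the rule in the same direction became 17 at 1.5-fold, 11 with no minimum, 3 at a minimum of 20 or with shared exon bases, and 0 at a minimum of 100, at 4-fold or with the whole interval. The 7 relatively lower pairs became 17 without an interval, 13 at 1.5-fold and 4 with shared exon bases. An alternative added after seeing the data, pairs sharing no exon base, left 9 relatively higher and 3 lower pairs and 2 in the same direction. Another, at least 10 antisense counts in each library, left 12 relatively higher pairs. These and the other counts fall partly because fewer genes enter. Depth limits these values: intervals of members such as Hoxb5os span more than an order of magnitude.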
